A study of Mus musculus with 2 samples.

Results

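The genes described here are the Fos, Jun and Batf subunits of the transcription factor AP-1 together with Atf3, in mouse lung cells at postnatal day 10. They were chosen by symbol: Fos, Fosb, Fosl1, Fosl2, Jun, Junb, Jund, Atf3, Batf and Batf3, which are 10 of the 27998 genes listed in each library, and all 10 were found. The values are unique molecular identifiers (UMIs), that is, counted mRNA molecules, from 1 mutant and 1 control single-cell library. The mutant library is labelled Nkx2-1;Aqp5 and the control library Nkx2-1, with genotype given only as mutant or control. Nkx2-1 is the homeodomain factor that specifies lung epithelium, and Aqp5 codes for an aquaporin of type 1 alveolar (AT1) cells, whose locus is known from mouse work as a site for driving Cre recombinase. The labels do not give the alleles, the driver or the number of animals. Both libraries were made on the 10x Chromium platform (3' kit) from FACS-sorted epithelial, endothelial, mesenchymal and immune cells, and the study asks how Nkx2-1 governs the formation and upkeep of AT1 cells.

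AP-1 is a dimer of basic leucine zipper proteins. Jun proteins can pair with each other or with Fos proteins, Fos proteins need a Jun partner, and Atf3 and Batf proteins pair with Jun proteins and shift what the dimer does. Many of these genes are immediate early genes, transcribed within minutes of growth factor, stress or wounding signals, and they are also known to respond when tissue is dissociated into single cells. In AT1 cells, the thin cells across which gas is exchanged, and in AT2 cells, which secrete surfactant, AP-1 activity is known mainly from injury and repair.

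Each group is 1 library, so differences have no replicate check, no p-value is given, and every difference is between 2 libraries. Intervals are exact at 95% and cover counting error only. The mutant library held 47271104 UMIs and the control library 29862980. After filters, 4262 mutant and 4004 control cells were used, and 27 barcodes occurred in both libraries. Cells were put into 6 classes from markers. The AT1 compartment holds the epithelial cells that were not AT2-like, airway, neuroendocrine-like or basal-like, because AT1 markers may differ in the mutant. It had 2233 mutant and 545 control cells, with medians of 12318 and 6423 UMIs per cell. In it, Nkx2-1 stood at 13.5 CPM (UMIs per 1000000 of the class) in mutant cells and at 485 CPM in control cells, and the 8 AT1 markers summed to 2812 CPM in mutant cells and 33096 CPM in control cells, so most mutant cells of the compartment were not AT1-like by these markers. The members and other immediate early genes were kept out of the genes that built the clusters.

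Several members lie close together on the GRCm38 assembly. Fos (chr12:85473890-85477273, plus strand) and Batf (chr12:85686669-85709087, plus strand) flank the related gene Jdp2, with 121753 bases between Fos and Jdp2 and 46790 bases between Jdp2 and Batf. Batf3 (chr1:191097847-191108945, plus strand) and Atf3 (chr1:191170296-191218039, minus strand) are 61350 bases apart. The remaining members lie apart: Jun at chr4:95049034-95052222 (minus), Fosl2 at chr5:32135801-32157842 (plus), Fosb at chr7:19302696-19310051 (minus), Jund at chr8:70698949-70700616 (plus), Junb at chr8:84974484-84978718 (minus) and Fosl1 at chr19:5447547-5455946 (plus). Jun, Junb, Jund and Fosl1 each overlap a gene on the opposite strand that the matrix also lists (Junos, Prdx2, Gm11175 and Ccdc85b). Whether the counting used strand is not given in the sources used here, so their values carry that limit.

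The 200 bases before the RefSeq start site are shown for Fos, Fosb, Jun and Junb, which were lower together outside the AT1 compartment, and for Atf3 and Batf, which behaved differently inside it. Sequences are from RefSeq (GRCm38.p6), 5′ to 3′ in the direction of the gene. The loci above span all annotated transcripts of a gene, and a RefSeq start need not be their outer end: the Atf3 window lies inside the Atf3 locus, before an internal start, and the Fosb and Batf windows overlap the ends of theirs. Capitals mark letters matching TGACG (the core of a cyclic AMP response element), TGACATCA (the known AP-1 site of Jun) or TTACGTCA (a response element known in Atf3), on either strand.
Fos, chr12:85473690-85473889, plus strand: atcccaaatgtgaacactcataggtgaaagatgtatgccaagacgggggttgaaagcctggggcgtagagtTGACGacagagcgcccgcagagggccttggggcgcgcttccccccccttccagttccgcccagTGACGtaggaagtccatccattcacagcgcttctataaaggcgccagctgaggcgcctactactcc
Fosb, chr7:19310046-19310245, minus strand: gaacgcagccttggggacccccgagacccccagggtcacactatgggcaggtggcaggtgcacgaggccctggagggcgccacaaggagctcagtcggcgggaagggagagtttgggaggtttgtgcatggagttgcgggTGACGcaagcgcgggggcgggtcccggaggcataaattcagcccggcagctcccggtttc
Jun, chr4:95052223-95052422, minus strand: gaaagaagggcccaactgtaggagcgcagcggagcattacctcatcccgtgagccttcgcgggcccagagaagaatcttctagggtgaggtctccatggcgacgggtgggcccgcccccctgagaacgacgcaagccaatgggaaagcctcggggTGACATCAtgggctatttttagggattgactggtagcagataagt
Junb, chr8:84978749-84978948, minus strand: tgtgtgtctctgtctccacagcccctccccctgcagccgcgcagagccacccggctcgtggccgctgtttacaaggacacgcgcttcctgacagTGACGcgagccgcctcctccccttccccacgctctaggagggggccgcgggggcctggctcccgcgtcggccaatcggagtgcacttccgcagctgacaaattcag
Atf3, chr1:191183334-191183533, minus strand: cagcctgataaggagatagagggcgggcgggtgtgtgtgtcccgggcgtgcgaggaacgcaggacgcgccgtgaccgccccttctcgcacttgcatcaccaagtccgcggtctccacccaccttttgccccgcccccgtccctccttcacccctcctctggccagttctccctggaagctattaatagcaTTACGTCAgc
Batf, chr12:85686520-85686719, plus strand: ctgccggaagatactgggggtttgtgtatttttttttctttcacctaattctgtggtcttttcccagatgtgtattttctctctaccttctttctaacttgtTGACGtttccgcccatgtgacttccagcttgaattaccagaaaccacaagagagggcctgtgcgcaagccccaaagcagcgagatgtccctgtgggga

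These letters were chosen with the windows in view, and a match is only a description. TGACG was present in 5 of the 9 members with a RefSeq entry (Fos, Fosb, Junb, Atf3 and Batf), against 15.6% of 32817 promoter windows of the same length. TGACATCA was found in Jun, and in 2.66% of all windows. TTACGTCA, whose reverse strand holds TGACG, was found in Atf3, and in 0.402% of all windows. The palindromic full response element TGACGTCA (1.47% of all windows), the consensus AP-1 site TGANTCA (5.48%) and the CArG box bound by serum response factor (1.19%) matched in none of the 9 windows. Sites more than 200 bases before the start were not searched, so these genes may still have such elements further upstream. Fosl1 was not among the entries.

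In the AT1 compartment the members did not move together. Batf was 16.4-fold lower in mutant cells, Jun 2.82-fold lower, Fosb 1.69-fold lower, Fos 1.45-fold lower and Jund 1.17-fold lower. Fosl2 and Junb had intervals that include 1, and both changed direction under other settings, while Atf3 was 1.30-fold higher in mutant cells. Of the 8 members with at least 20 UMIs and a ratio, none was at least 2-fold higher, where 22.0% of all 12704 genes tested were. There were 2 at least 2-fold lower, Jun and Batf, where 12.5% of all genes were. The median log2 ratio of the 8 was -0.39 and that of all genes 0.15. The choice of cells moved several of these values. With AT1-like clusters alone the log2 ratio of Batf was -2.67 in place of -4.04. With all epithelial cells pooled it was -2.28, that of Fos -1.25 in place of -0.54, that of Fosb -1.49 in place of -0.76, that of Junb -0.93 in place of 0.03 and that of Fosl2 1.09 in place of 0.02.

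**Figure D1:**
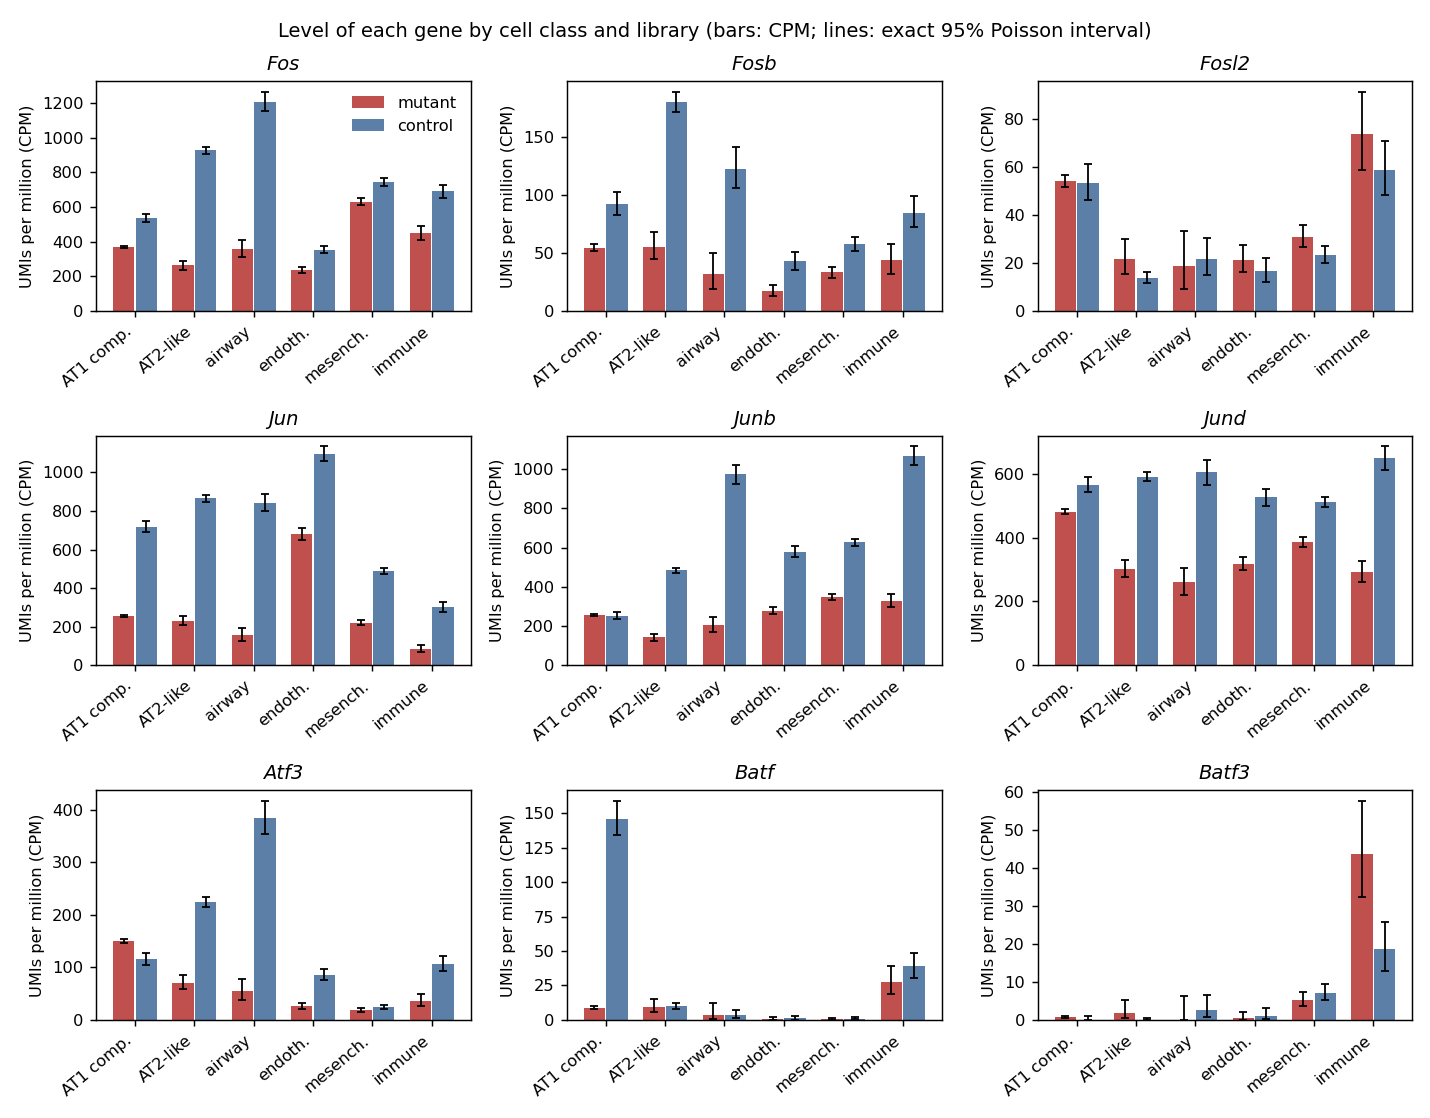
Level of 9 members (CPM, linear axis from 0) in each of 6 cell classes, mutant bar left of control bar, with the exact 95% Poisson interval of the count as a line. Batf stood at 8.89 CPM in the mutant AT1 compartment and at 146 CPM in the control one, while Fos, Jun, Junb and Jund were lower in the mutant library in all 5 other classes.

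Batf encodes a short bZIP protein known as a partner of Jun proteins in T and B cells. In the AT1 compartment it had 276 UMIs in mutant cells, which is 8.89 CPM, and 541 UMIs in control cells, which is 146 CPM. The ratio was 0.0608, with an interval of 0.0524 to 0.0704. After each cell was thinned to 1500 UMIs, 1.75% of mutant cells (1.24% to 2.38%) and 19.3% of control cells (16.0% to 22.8%) held a Batf UMI. Control cells of the compartment were thus the high ones, and the 2 intervals lay far apart. The level in mutant cells was close to that of AT2-like cells, which had 9.46 CPM in the mutant and 9.83 CPM in the control library, with a ratio of 0.962 (0.529 to 1.64). The log2 ratio in AT2-like cells was -0.06, and -0.96 in cells thinned to 1500 UMIs. Endothelial cells, which should lack Batf, had 0.349 CPM in the mutant and 1.05 CPM in the control library, and 0.207% and 0% of them held a Batf UMI after thinning. Lymphocyte markers in the compartment were near 0: the 3 T cell markers summed to 0.226 CPM in mutant and 2.70 CPM in control cells, and the 5 B cell markers to 4.16 and 8.11 CPM. Of the B cell markers 1 was at 0 in control cells, and none of the others was at 0 in either library.

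Among the mutant cells of the compartment, Batf was highest in the clusters that were AT1-like by their markers. Epithelial cluster 11, which was AT1-like by its markers and held 171 mutant and 32 control cells, had 51.2 CPM of Batf in mutant cells (40.5 to 63.9) and 60.5 CPM in control cells. The ratio within that cluster was 0.847, with an interval of 0.484 to 1.59 from 78 mutant and 15 control UMIs, so a difference was not detectable at this depth. AT1-like cluster 5, with 377 mutant and no control cells, had 13.3 CPM (10.1 to 17.1). The other 5 clusters with at least 290 mutant cells had 4.08 to 6.71 CPM, and their intervals overlapped one another. The main control cluster, AT1-like cluster 3 with 511 control cells and 1 mutant cell, had 153 CPM (140 to 166), above the 32 control cells of cluster 11. Nkx2-1 itself stood at 188 CPM in mutant cells of cluster 11, at 14.6 CPM in cluster 5 and at 2.04 to 2.92 CPM in the other mutant clusters, and Ager, an AT1 marker, at 10710, 4578 and 15.6 to 371 CPM in the same clusters. Over the mutant cells Batf, Nkx2-1 and Ager thus ran in the same order, from cluster 11 to cluster 5 to the range of the other clusters. Control cells did not keep to it: clusters 11 and 3 had 532 and 483 CPM of Nkx2-1, with overlapping intervals, but 60.5 (33.8 to 99.7) and 153 CPM of Batf. Ager stood at 20317 CPM in control cluster 11 and 22736 CPM in control cluster 3. Within cluster 11 Nkx2-1 had a ratio of 0.353 (0.286 to 0.437) and Ager one of 0.527, beside the 0.847 of Batf. Among all mutant compartment cells, the 53 with an Nkx2-1 UMI after thinning had 37.1 CPM of Batf (22.0 to 58.7), against 8.44 CPM (7.44 to 9.54) in the 2180 without one. In control cells the intervals of the same split overlapped, with 142 CPM (126 to 160) in the 286 with an Nkx2-1 UMI and 151 CPM (133 to 170) in the 259 without one. Within the mutant cells of cluster 11 the same split gave 52.6 CPM in 40 cells and 50.9 CPM in 131 cells, with overlapping intervals. Those cells differ in depth too, with medians of 6857 and 8303 UMIs. The split also misses expressing cells: in control cluster 3, 88.8% of cells held an Nkx2-1 UMI before thinning and 51.9% after it. Many control cells counted as without a UMI thus did hold one, and the overlapping intervals do not show that Batf was equal at unequal Nkx2-1 levels.

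**Figure D2:**
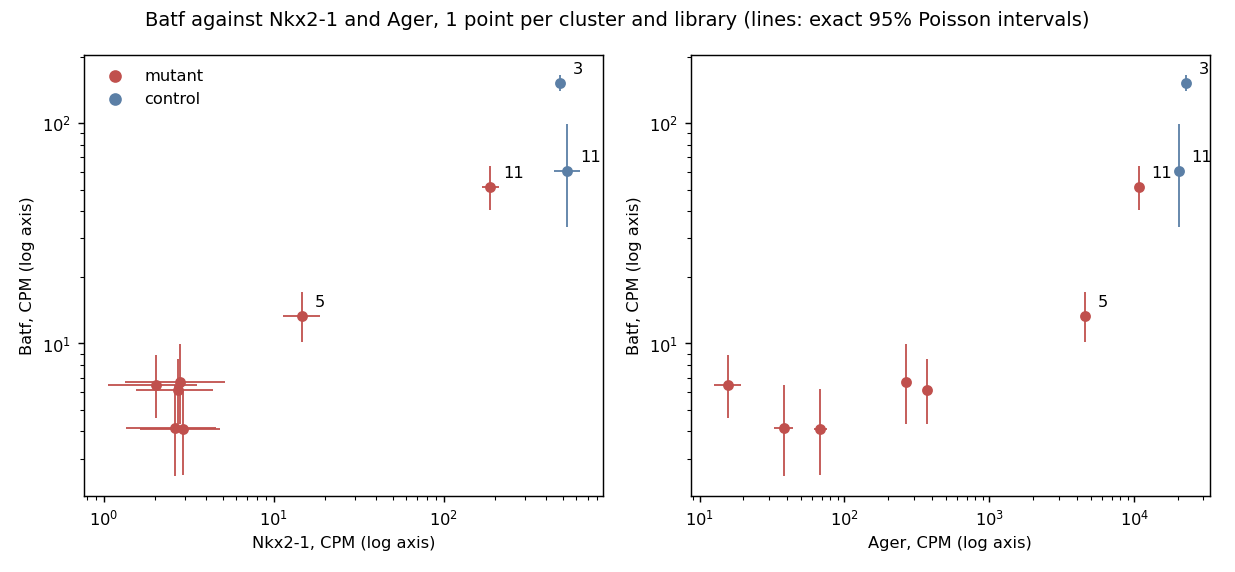
Batf level against Nkx2-1 level (left) and Ager level (right), both in CPM on log axes, 1 point per epithelial cluster and library of the AT1 compartment, with exact 95% Poisson intervals as lines. The mutant cells of clusters 11 and 5 lie at 51.2 and 13.3 CPM of Batf, between the other mutant clusters and the 153 CPM of control cluster 3.

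Jun, the founding partner of AP-1, was lower in mutant cells of every class. In the AT1 compartment it had 255 CPM in mutant cells and 718 CPM in control cells, a ratio of 0.355 (0.340 to 0.371), and 26.4% of thinned mutant cells and 48.1% of thinned control cells held a UMI. It varied less than Batf among the mutant clusters, from 199 CPM in cluster 8 (187 to 210) to 337 CPM in cluster 6 (321 to 353). Within cluster 11 Jun had 286 CPM in mutant and 1145 CPM in control cells, a ratio of 0.250 (0.215 to 0.292), and control cluster 3 had 689 CPM.

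Atf3, a stress-induced bZIP factor that can repress transcription, was higher in mutant cells of the compartment and lower in mutant cells of the other 5 classes, a difference between classes that was not tested. It had 4651 UMIs (150 CPM) in mutant cells and 428 UMIs (116 CPM) in control cells of the compartment, a ratio of 1.30 (1.17 to 1.43). In AT2-like cells it had 70.9 CPM in the mutant and 225 CPM in the control library, and in airway cells 55.7 and 385 CPM. The compartment value was an average over unlike clusters. The highest mutant level was 262 CPM (248 to 276) in cluster 6, which is led by Cdkn1a and Sprr1a, and the next 176 CPM (164 to 188) in cluster 10, led by Anxa10, Psca and Tff1. The lowest were 77.7 CPM in the cycling cluster 8 and 67.6 CPM in AT1-like cluster 11. In cluster 11 the direction was the opposite one, with 67.6 CPM in mutant and 185 CPM in control cells, a ratio of 0.365 (0.255 to 0.528). With all epithelial cells pooled the log2 ratio was -0.58 in place of 0.37, a set that adds 215 mutant and 1268 control AT2-like cells and the airway cells.

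Fosl2, known as Fra-2, was the measured Fos family member that was not lower in the compartment. It had 54.1 CPM in mutant and 53.5 CPM in control cells of the compartment, with a ratio of 1.01 (0.872 to 1.18). Its 1679 mutant UMIs were spread unevenly: cluster 6 had 93.3 CPM (85.1 to 102), AT1-like clusters 11 and 5 had 74.2 and 68.0 CPM, and clusters 7 and 4 had 31.9 and 34.5 CPM. The last 2 did not differ beyond their intervals. Control cluster 3 had 51.7 CPM. Fos stood highest in the same cluster 6, at 501 CPM, where the other mutant clusters had 284 to 388 CPM, and so did Jund, at 694 CPM against 387 to 528 CPM.

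Fos and Fosb, the inducible Fos proteins, were lower in the compartment as a whole by less than in other epithelial cells. For Fos this was an average over unlike clusters. Among cluster 11 cells with an Nkx2-1 UMI after thinning, Fos had 322 CPM in 40 mutant cells (263 to 390). In the 21 such control cells it had 813 CPM (680 to 964). The Fosb intervals of the same cells overlapped. In the whole compartment Fos had 368 CPM in mutant and 535 CPM in control cells, with 26.9% and 31.0% of thinned cells holding a UMI. Fosb had 54.7 CPM in mutant and 92.7 CPM in control cells, a ratio of 0.590 (0.525 to 0.665). Junb, which can oppose Jun, had 258 CPM in mutant and 254 CPM in control cells, a ratio of 1.02 (0.952 to 1.09). That similarity was also an average, since Junb had 218 CPM in mutant and 463 CPM in control cells of cluster 11, a ratio of 0.470 (0.379 to 0.587). Jund, the more constantly expressed Jun protein, had 481 CPM in mutant and 565 CPM in control cells, a ratio of 0.851 (0.813 to 0.891).

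**Figure D3:**
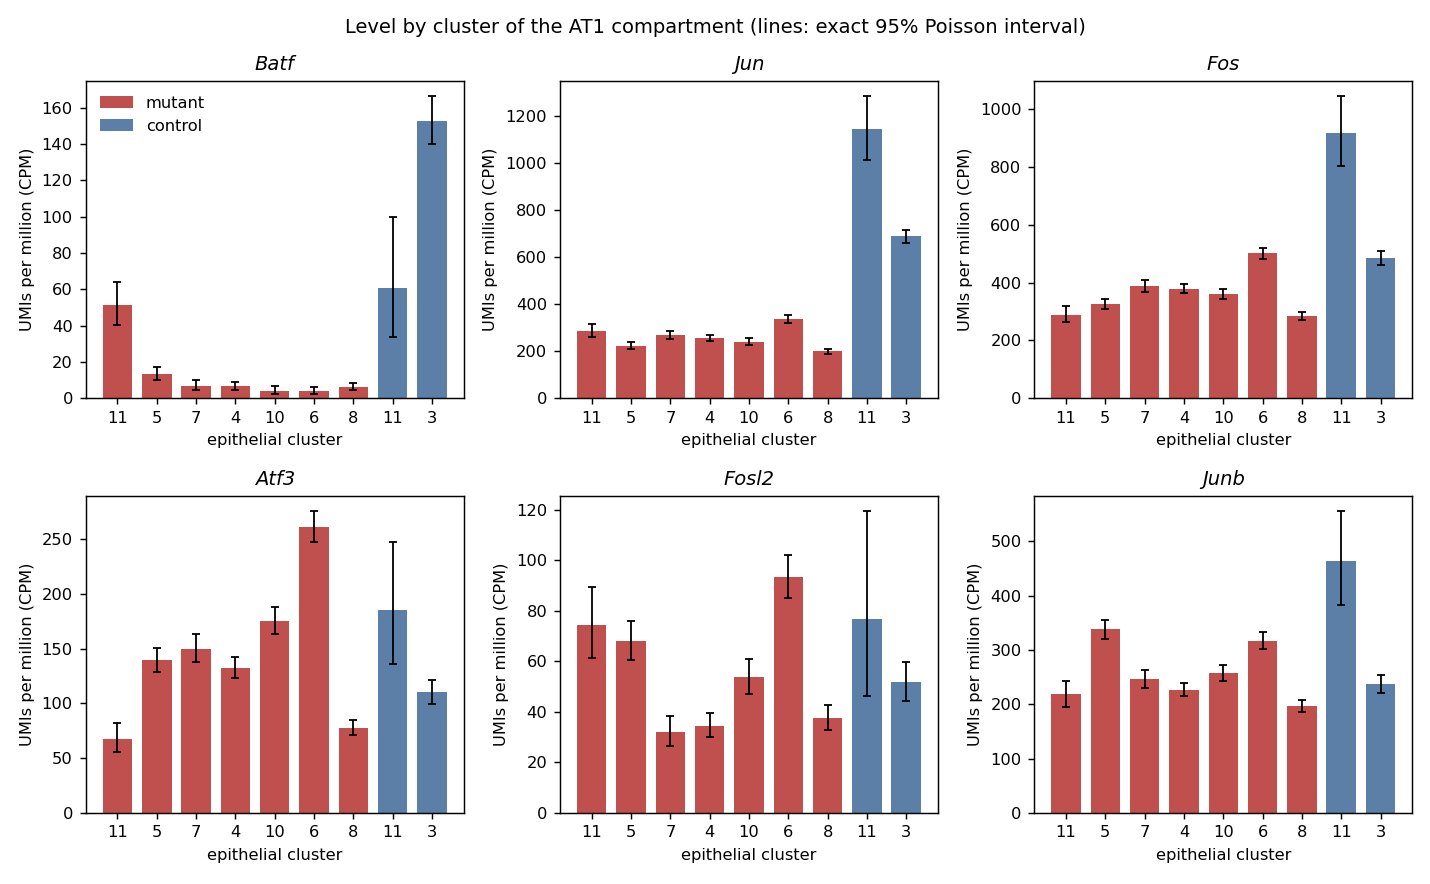
Level of 6 members (CPM, linear axis from 0) by numbered epithelial cluster of the AT1 compartment, mutant clusters left of the 2 control ones, with exact 95% Poisson intervals as lines. Batf was highest in control cluster 3, while Atf3 and Fosl2 were highest in mutant cluster 6, at 262 and 93.3 CPM.

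Fosl1, known as Fra-1, was almost unmeasured. It had 6 UMIs in mutant and 0 UMIs in control cells of the compartment, where 0 in 3700133 UMIs allows up to 0.811 CPM by the floor of 3 counts and up to 0.997 CPM by the exact interval, and no class held more than 6 UMIs in either library. Batf3, a factor of dendritic cells, had 21 UMIs in mutant and 0 UMIs in control cells of the compartment. Its 0.677 CPM in mutant cells was under both limits, so no ratio is given for either gene. Of the 21 Batf3 UMIs, 16 came from the cycling cluster 8.

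Outside the compartment, the inducible members were lower in the mutant library in each class. AT2-like cells kept Nkx2-1: in AT2-like cluster 9, which holds cells of both libraries, it stood at 306 CPM in mutant and 303 CPM in control cells, a ratio of 1.01 (0.876 to 1.17). Fos had 262 CPM in mutant and 927 CPM in control AT2-like cells, a ratio of 0.283 (0.257 to 0.311). Jun had 231 and 865 CPM, a ratio of 0.267, Junb 142 and 484 CPM, a ratio of 0.293, and Atf3 a ratio of 0.315. Of 8 measured members, 5 were at least 2-fold lower (Fos, Fosb, Jun, Junb and Atf3), where 4.74% of 10605 genes were, and none was at least 2-fold higher, where 7.61% were. The median log2 ratio was -1.68, and -1.93 under either alternative scaling, which put the median of all genes at -0.05 or -0.06 in place of 0.19. Fosl2 was the exception, at 21.9 CPM in mutant and 13.8 CPM in control cells, a ratio of 1.58 (1.07 to 2.29) on 37 mutant UMIs, and its log2 ratio of 0.66 was 1.31 when each cell was classed on its own. Most mutant AT2-like cells (192 of 215) were in cluster 9 and most control ones in clusters 1 and 2. Within cluster 9 the ratios were 0.326 for Fos, 0.303 for Fosb, 0.356 for Jun, 0.376 for Junb, 0.546 for Jund and 0.420 for Atf3, each with an interval below 1.

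Airway cells (67 mutant and 138 control, club-like and ciliated-like) gave 6 of 7 measured members at least 2-fold lower, where 6.43% of 7912 genes were, and none at least 2-fold higher, where 8.08% were. Atf3 had the lowest ratio, 0.145 (0.0987 to 0.205), with 55.7 CPM in mutant and 385 CPM in control cells. Jun and Junb followed, at 0.186 and 0.212, and Fos had 360 CPM in mutant and 1208 CPM in control cells. Fosl2, with 11 mutant and 34 control UMIs, had a ratio of 0.856 whose interval of 0.391 to 1.73 includes 1, and its log2 ratio of -0.23 was -1.28 in thinned cells.

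Endothelial cells gave 3 of 7 measured members at least 2-fold lower (Fosb, Junb and Atf3), where 2.16% of 10353 genes were, and none at least 2-fold higher, where 7.23% were. Jun had 680 CPM in mutant and 1096 CPM in control cells, a ratio of 0.620 (0.586 to 0.656), and the Car4 capillary-like cells had the highest Jun level of any type in both libraries, at 1049 and 1670 CPM. Most of the class fell into different clusters in each library, with 258 mutant cells and 1 control cell in endothelial cluster 1, and 9 mutant and 200 control cells in cluster 2. Atf3 had 26.1 CPM in mutant and 86.2 CPM in control cells, a ratio of 0.303. The Fosl2 interval, 0.868 to 1.93, includes 1, and its log2 ratio of 0.37 became -0.30 in cells thinned to 1500 UMIs. Markers of other cell types also differed in this class: the 7 mesenchymal markers summed to 1119 CPM in mutant and 603 CPM in control cells, the 6 immune markers to 83.6 and 7.36 CPM, and the 8 AT2 markers to 320 and 3276 CPM. The AT2 markers were lower in mutant mesenchymal cells too, at 240 and 1941 CPM. Of these markers 1 AT2 marker was at 0, in mutant endothelial cells, and their part in the members' ratios was not tested.

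Mesenchymal cells gave 1 of 8 measured members at least 2-fold lower, Jun, where 2.47% of 12109 genes were, and none at least 2-fold higher, where 6.86% were. Jun had 222 CPM in mutant and 489 CPM in control cells, a ratio of 0.454 (0.426 to 0.484). Fos was closer, with 629 CPM in mutant and 744 CPM in control cells, and smooth muscle-like cells went the other way, with 1957 CPM in 104 mutant cells (1848 to 2070) and 1210 CPM in 65 control cells (1113 to 1314). Pericyte-like cells had 251 CPM of Fos in the mutant and 489 CPM in the control library. Here too clusters split by library, with 1 mutant and 307 control cells in mesenchymal cluster 2, and 225 mutant and 2 control cells in cluster 4. Fosl2 had 30.9 CPM in mutant and 23.3 CPM in control mesenchymal cells, a ratio of 1.33 (1.07 to 1.65).

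Immune cells (177 mutant and 335 control) gave 4 of 9 measured members at least 2-fold lower (Jun, Junb, Jund and Atf3), where 5.61% of 8578 genes were, and 1 at least 2-fold higher, Batf3, where 9.03% were. Junb had 330 CPM in mutant and 1067 CPM in control cells, and Jun 85.3 and 302 CPM. Batf3 had 49 UMIs (43.5 CPM) in mutant and 35 UMIs (18.6 CPM) in control cells, a ratio of 2.34 (1.49 to 3.73). In thinned cells the log2 ratio of Batf3 was 2.14 in place of 1.23 and that of Atf3 -0.96 in place of -1.55. The immune mixture differed between the libraries: the 5 B cell markers summed to 1075 CPM in mutant and 3222 CPM in control cells, and the 3 T cell markers to 259 and 621 CPM. The dendritic-like cluster held 41 of the 177 mutant and 19 of the 335 control cells. The part of that mixture in the immune ratios, that of Batf3 among them, was not tested. Other scalings put the members' median log2 ratio at -1.12 and -1.10 in place of -0.96 here, and at -2.06 in place of -1.93 in airway cells.

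**Figure D4:**
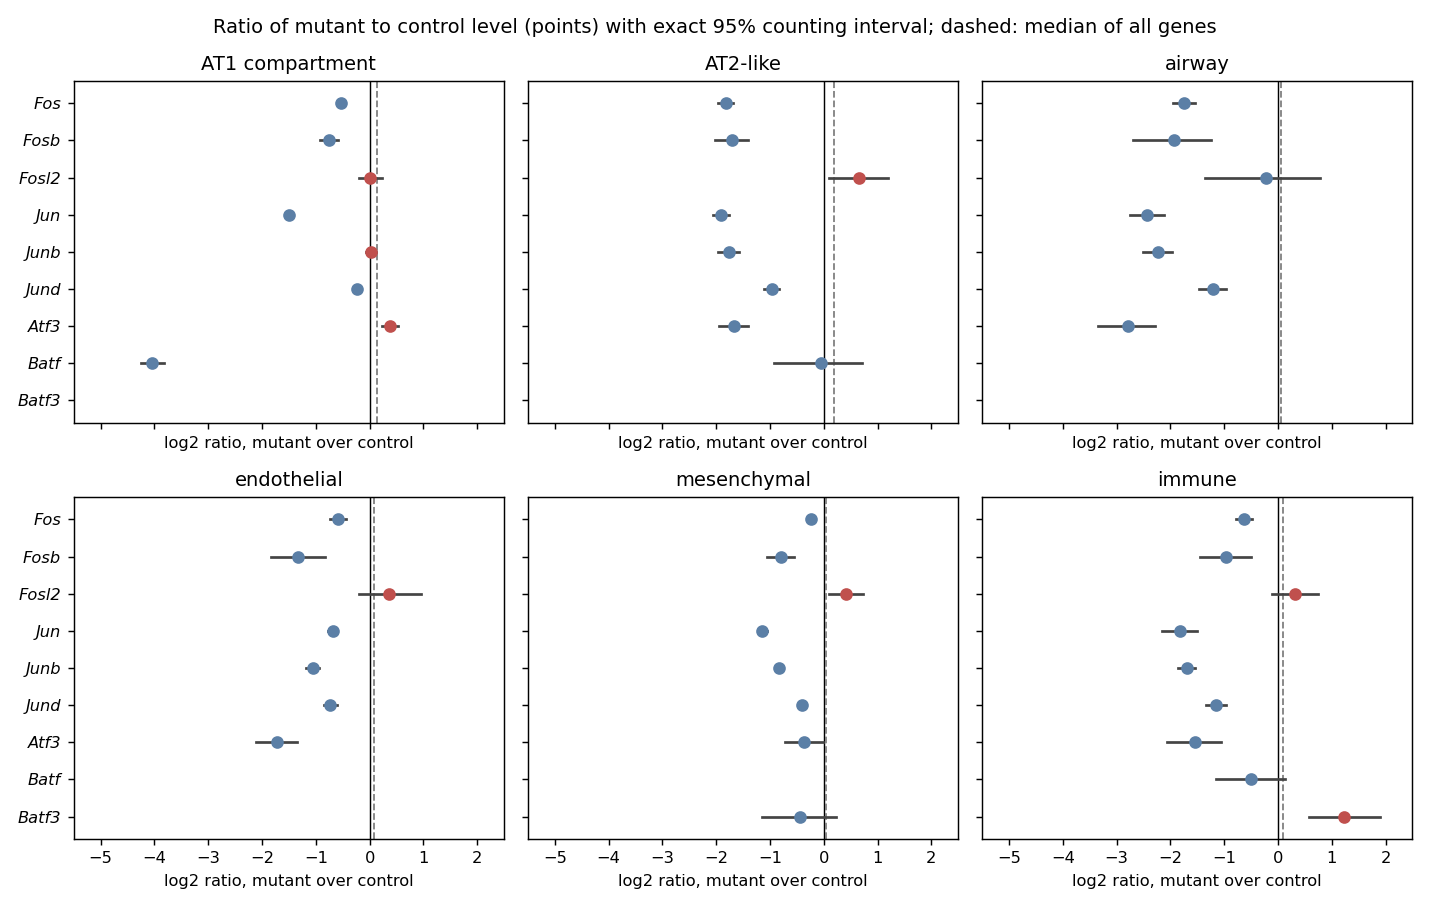
Log2 ratio of mutant over control level for each measured member (rows) in 6 cell classes, with the exact 95% counting interval as a line and the median of all genes as a dashed line. Fos, Fosb, Jun and Jund lie left of 0 in all 6 classes, Fosl2 lies at or right of 0 in 5 of them, and Atf3 lies right of 0 in the AT1 compartment alone.

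Other genes moved with the members in the same cells. Of the 25 other immediate early genes, 21 of 23 measured in AT2-like cells, 21 of 22 in airway cells and 17 of 22 in immune cells were lower in the mutant library, with median log2 ratios of -1.44, -2.11 and -0.74, where those of all genes were 0.19, 0.05 and 0.10. In endothelial and mesenchymal cells 13 of 21 and 15 of 23 were lower. Heat shock genes, which are also known to respond to dissociation, were mostly lower outside the compartment: 7 of 10 in AT2-like, 6 of 9 in airway, 8 of 10 in endothelial, 8 of 10 in mesenchymal and 8 of 9 in immune cells. Their median log2 ratios in that order were -0.57, -1.20, -0.27, -0.28 and -0.92, where those of all genes were 0.19, 0.05, 0.08, 0.04 and 0.10. The interval of the median lay below 0 in immune cells alone and included 0 in the other classes. In the compartment 5 of 10 were lower and 5 higher, with a median log2 ratio of -0.01. There Hspd1 and Hspe1, which code for mitochondrial chaperones, were 2.76-fold and 2.30-fold higher, and Hspb1 was 2.22-fold lower. Hspa8, the one with the highest level, had 989 CPM in mutant and 1101 CPM in control cells of the compartment. Hspa1a, an inducible heat shock chaperone, had 84.0 CPM in mutant and 444 CPM in control endothelial cells, and 88.6 and 442 CPM in mesenchymal cells. In the compartment Hspa1a had 89.0 CPM in mutant and 152 CPM in control cells. Since the 2 libraries were made from separate cell preparations, handling and genotype cannot be told apart for any gene. This holds for genes that shifted in some classes as for those that shifted in all. The part of a handling response in the members' ratios was not tested.

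In the AT1 compartment the other immediate early genes were mixed: 16 of 24 measured were lower and 8 higher, with a median log2 ratio of -0.51. Ier3, an early survival gene, had 119 CPM in mutant and 820 CPM in control cells, 6.88-fold lower. Cyr61, a matricellular gene driven by Yap and serum response factor, had 174 CPM in mutant and 1067 CPM in control cells, 6.15-fold lower. Myc, which drives growth and division, had 396 UMIs in mutant and 0 UMIs in control cells, at least 15.7-fold higher against a floor of 3 counts, with an exact interval that starts at 12.7. Of 10 measured genes of the integrated stress response, 9 were lower, with a median log2 ratio of -0.89, beside 0.15 for all genes. At least 2-fold lower were 4 of the 10, where 12.5% of all genes were, and at least 2-fold higher 1, where 22.0% were. Atf4, the main factor of that response, had 95.9 CPM in mutant and 149 CPM in control cells. Ppp1r15a, which ends the response, was 3.31-fold lower, Psat1, a serine synthesis enzyme, 3.93-fold lower, and Trib3, a pseudokinase, 8.67-fold lower. Atf3, itself often counted as a target of Atf4, was 1.30-fold higher in the same cells.

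Of 19 measured related bZIP genes, 11 were higher and 8 lower in the compartment, with a median log2 ratio of 0.48, beside 0.15 for all genes. Nfe2l2, the oxidative stress regulator Nrf2, had 287 CPM in mutant and 72.2 CPM in control cells, a ratio of 3.98 (3.52 to 4.51). Bach2 had a ratio of 6.46 on 271 mutant and 5 control UMIs, and Ddit3, a factor of endoplasmic reticulum stress, was 3.20-fold lower. Genes that AP-1 is known to regulate elsewhere were mostly high in mutant cells: of 15 measured, 11 were higher and 4 lower, with a median log2 ratio of 2.96. At least 2-fold higher were 10 of the 15, where 22.0% of all genes were, and at least 2-fold lower 2, where 12.5% were. Sprr1a, a cornified envelope gene, had 2556 CPM in mutant cells and 0 UMIs in control cells, Spp1, the gene of osteopontin, 554 CPM and 0 UMIs, and Sprr2a3 264 CPM and 0 UMIs. No member was at least 2-fold higher in those cells. Sprr1a reached 5883 CPM in cluster 6, where Atf3 and Fosl2 were highest, and 4679 CPM in cluster 10, but 54.5 CPM in AT1-like cluster 11. That list was chosen with earlier results of these libraries known and is no separate evidence.

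Upstream of AP-1, 11 of 18 measured genes of MAP kinases and their feedback inhibitors were higher in the compartment, with a median log2 ratio of 0.27, close to the 0.15 of all genes. At least 2-fold higher were 3 of the 18, a share below the 22.0% of all genes. The feedback inhibitor Spred2 had a ratio of 5.59 (2.81 to 13.0), the phosphatase gene Dusp5 one of 2.47, and Dusp4 10.5 on 88 mutant UMIs and 1 control UMI (1.83 to 419). Map2k2, the kinase gene with the highest level in that list, had 142 CPM in mutant and 156 CPM in control cells. Of 6 genes of the serum response, which drives Fos and Egr1, 4 were higher, and Elk3 had a ratio of 3.33 and Mkl2 of 1.75, and Elk4, the one with the highest level, a ratio of 1.20 (0.987 to 1.47). The interval for Elk1, 0.786 to 2.66 around 1.38, includes 1. Of the Batf partners, Irf4 had no UMI in the compartment and Irf8 had 35 UMIs in mutant and 0 UMIs in control cells.

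**Figure D5:**
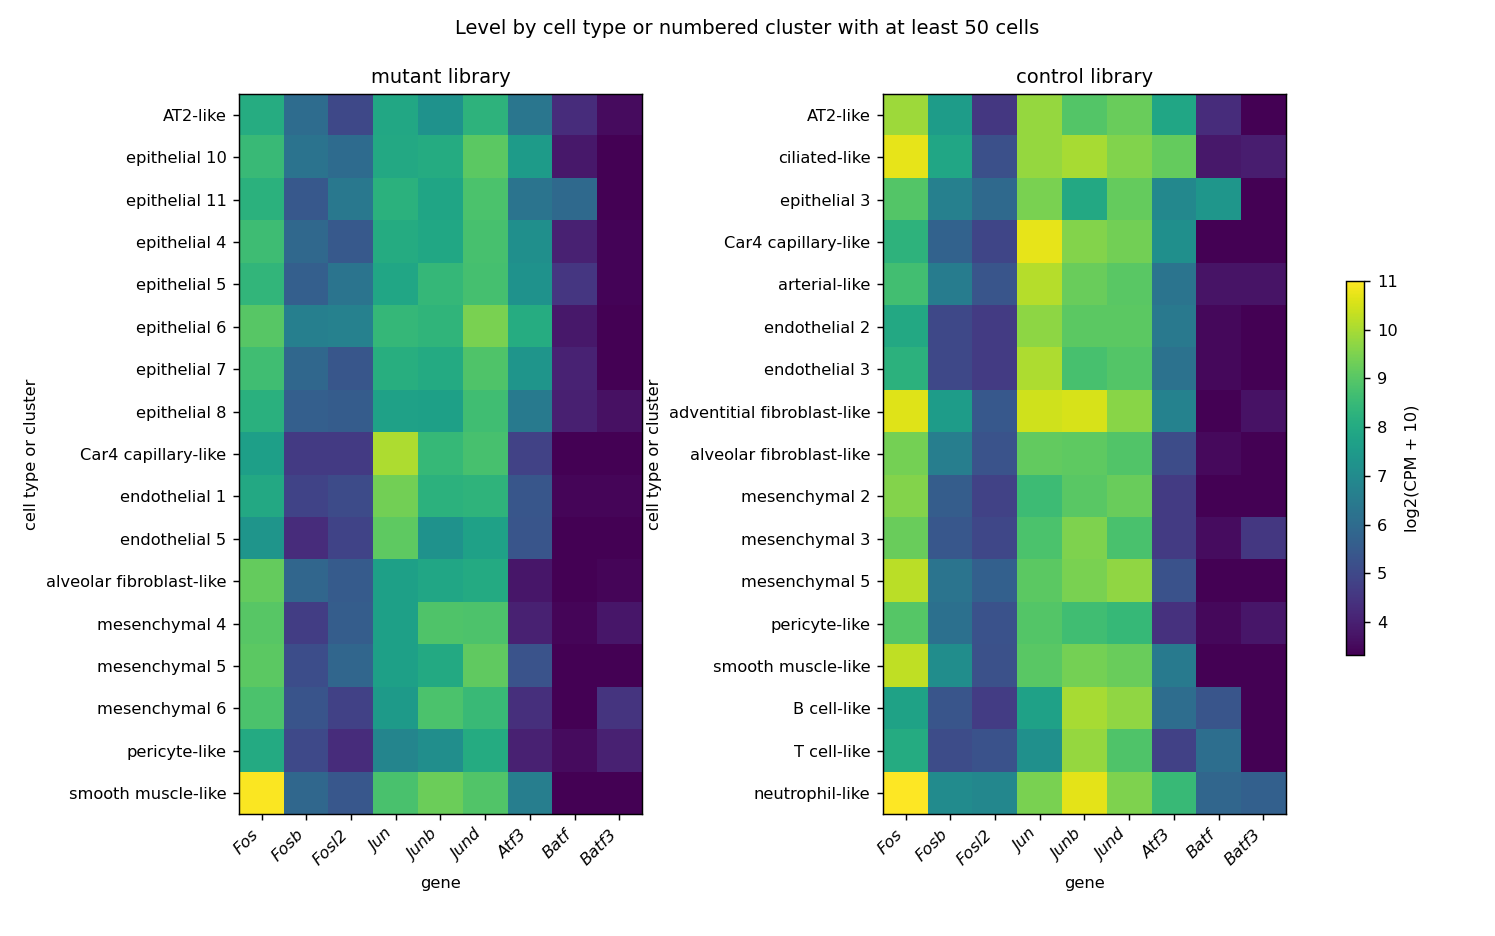
Level of 9 members as log2(CPM + 10), shown by colour, in cell types or numbered clusters with at least 50 cells, mutant library left and control library right. Of the types shown, Jun was highest in Car4 capillary-like cells of both libraries. Batf was highest, among those shown, in epithelial cluster 11 of the mutant and epithelial cluster 3 of the control library. No immune or airway type of the mutant library had 50 cells, so none is shown for it.

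Across cell types each member had its own order, described here for types or numbered clusters with at least 50 cells, 17 in each library. No immune or airway type reached 50 cells in the mutant library, so the mutant orders hold none of them. Among these types Batf was highest in AT1-like cells of both libraries, with 51.2 CPM in mutant cluster 11 and 153 CPM in control cluster 3. Mutant lymphocytes could not be ranked, and mutant immune cells as a class had 27.5 CPM (18.7 to 39.1). In the control library T cell-like cells came next at 58.7 CPM (39.3 to 84.2), the neutrophil-like cluster had 48.3 CPM and B cell-like cells 31.0 CPM (19.4 to 47.0), and these 3 did not differ beyond their intervals. Atf3 was highest in mutant cluster 6 at 262 CPM, and in control ciliated-like cells at 572 CPM (519 to 629). Fos was highest in smooth muscle-like cells of the mutant library and, in the control library, in the neutrophil-like cluster at 2167 CPM. The top genes of that cluster also include F13a1 and Ly6c2, the latter a monocyte marker used here, so it may hold monocytes too. Fosl2 was highest in mutant cluster 6, and in the control library in the same neutrophil-like cluster at 107 CPM (72.7 to 152). Among these types Batf3 was highest in the neutrophil-like cluster of the control library at 41.4 CPM. Apart from it, Batf3 was highest in 1 unnamed mesenchymal cluster of each library. These were mutant mesenchymal cluster 6 at 12.4 CPM and control mesenchymal cluster 3 at 13.9 CPM. Taken as a class, the 177 mutant immune cells, whose types are not ranked here, had 43.5 CPM of Batf3.

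The genes whose levels ran most like each member's were taken over the same 34 points, as Pearson r of log2(CPM + 10) among 9756 genes. The points share 2 libraries, so r also carries the library difference. For Fos they were Egr1 (0.76), Fosb (0.74) and Btg2 (0.73), and for Junb they were Zfp36 (0.82), Hspa1a (0.80) and Nr4a1 (0.80). Jun ran most like Gm12216 (0.82) and Ier2 (0.80), Jund like Junb (0.73), Fosb like Fos (0.74) and Sord (0.73), and Atf3 like Asl (0.77) and Neat1 (0.76). Batf had the closest matches, Hmha1 (0.87), Rhof (0.85) and Unc13d (0.85), none of them a member. Its level was under 10 CPM, the amount added, in most of the 34 points. The r of Batf thus rests largely on a few high points and cannot be ranked against that of broadly expressed members. Fosl2 ran most like Svip (0.73) and Batf3 like the neutrophil gene Ngp (0.75).

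Within the compartment the inducible members were found in the same cells. In mutant cells thinned to 1500 UMIs, 56.2% of the 313 cells with an Atf3 UMI (50.5% to 61.8%) and 22.1% of the 1920 others (20.2% to 24.0%) held a Fos UMI. In control cells the shares were 70.7% of 58 (57.3% to 81.9%) and 26.3% of 487 (22.4% to 30.4%). Of mutant cells with a Fosb UMI, 82.4% held a Fos UMI, against 23.6% of those without, and in control cells 83.6% against 24.4%. For Batf, set beside Jun alone, no such difference was detectable. It was found in 1.69% of mutant cells with a Jun UMI (0.816% to 3.09%) and 1.77% of those without (1.19% to 2.53%). Only 39 of the 2233 mutant cells held a Batf UMI after thinning, so these 2 shares decide little. In control cells the shares were 17.9% (13.5% to 23.1%) and 20.5% (15.9% to 25.7%). Fos UMIs were concentrated in few cells, since the top 10% of cells held 66.3% of them in the mutant and 62.1% in the control compartment. For Jun these shares were 58.7% and 47.4%. Cells of 1 library are not replicates, so these shares describe the libraries.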

How the data were processed

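UMI counts per gene and barcode, deposited as raw whole-number counts by the authors, were used for 1 mutant and 1 control library of 27998 genes each. The submitters' processing notes list Cell Ranger, Seurat and mm10. Tool versions and settings were not given in the sources used here. Genotype labels gave the groups and name no replicate. The counts were read as deposited (Python 3.11.15, scipy 1.17.1). Kept barcodes had 500 genes or more and less than 10% mitochondrial counts. Doublets were scored per library with Scrublet in scanpy 1.11.5 from 2 simulated doublets per cell. Its automatic threshold marked 90 mutant and 10 control cells, so the highest scores were removed instead, at an expected 0.8% per 1000 cells (156 mutant and 137 control cells).

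Counts scaled to 10000 per cell and log transformed gave 2000 variable genes, 30 components, 20 neighbours and Leiden clusters (leidenalg 0.10.2, resolution 1, seed 1) of both libraries together, first into lineages and then within each. A cluster took a name from at least 3 markers with a mean log2 fold of at least 1.5. Of the markers, 4 are absent from the matrix. Clusters with genes of another lineage were called mixed, and their 76 mutant and 49 control cells were left out. Free RNA, read from the AT2 transcript Sftpc in endothelial cells, came to 2.42% of mutant and 3.12% of control UMIs.

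UMIs were summed per class and library and divided by the class total (CPM). Ratios are mutant over control, with exact conditional binomial intervals. Levels have exact Poisson intervals and shares of cells exact Clopper-Pearson intervals. A gene at 0 took 3 counts per class and library as its floor, and measured means at least 20 UMIs over both libraries with a ratio. For shares, cells were thinned to 1500 UMIs each, and none was shallower. All 10 members were named with their values. Of each other list, the 3 genes with the largest ratio in the AT1 compartment and the gene with the highest level were named, and a few others, such as Hspa1a, were chosen after their values were seen. The members, lists and alternatives were chosen with earlier results of these data known. The ratio and thinning code was tested on simulated counts. No count model such as a replicate test was possible with 1 library per group.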

Additional observations from a re-analysis of the deposited data

Results flagged for a closer look

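Atf3 stood out because its direction in the AT1 compartment was the opposite of that in the other 5 cell classes of the same 2 libraries. Its log2 ratio of mutant over control was 0.37 in the compartment, with an interval above 0. It was -1.67 in AT2-like cells, -2.79 in airway cells, -1.72 in endothelial cells, -0.37 in mesenchymal cells and -1.55 in immune cells, each with an interval below 0. The difference between classes was not tested, since each class has 1 library per group. Within AT1-like cluster 11 of the compartment the ratio was 0.365, on 103 mutant and 46 control UMIs.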

How the results depend on the processing

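No paired analysis was possible because each group has 1 library. Of 494 member ratios recomputed under the alternatives, 481 kept their direction, and all 226 values of the 22 ratios past 2-fold did so, 221 of them still past 2-fold. The 13 that changed direction were Fosl2 and Junb in the compartment, Fosl2 in airway and endothelial cells, Batf in AT2-like cells and Atf3 in the compartment. Atf3 changed with all epithelial cells as the compartment (-0.58), and that setting also gave 2 members at least 2-fold higher and 4 lower, in place of 0 and 2. A 4-fold limit left 1 member lower. The share of all genes under these settings is not given here, so these counts have no background beside them. The members' median in AT2-like cells was -1.93 with median-of-ratios factors and -1.93 with TMM factors, in place of -1.68, and the other 73 of 75 medians stayed within their intervals. The compartment ratio of Batf ranged from -4.07 with free RNA subtracted to -2.28 with all epithelial cells and that of Jun from -1.71 to -1.41 on the log2 scale. Of 120 shares of cells, 70 stayed within their intervals when cells were thinned to 2000 UMIs. Depth limits Fosl1 in all classes, Batf3 outside immune and mesenchymal cells, and Batf in airway, endothelial and mesenchymal cells. The 1 library per group limits every comparison.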
